A study of Homo sapiens with 17 samples.

Results

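The regions described here are the binding regions of thyroid hormone receptor beta (TRβ) that were listed only in cells given the hormone T3, and that lay where the chromatin remodeling subunit PBRM1 was listed both with T3 and without it. Members were all regions of the TRβ T3 list on chromosomes 1 to 22 and X that shared no base with a TRβ vehicle region and at least 1 bp with a PBRM1 region of both the T3 and the vehicle list. There were 1402 such regions, called constant-PBRM1 regions below, of 7186 TRβ T3 regions in all (19.5%) and of 6688 T3-only TRβ regions (20.96%, exact Clopper-Pearson 95% interval 19.99 to 21.96). The members were thus chosen by their presence in the TRβ and PBRM1 lists, so what those lists show at them is a description of the choice, and the BRG1 and ARID1A lists were not used. "Constant" means listed in both conditions, not an equal amount of protein.

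The cells were Nthy-ORI, a line of immortalised normal human thyroid epithelial cells, profiled by CUT&RUN, in which an antibody directs a nuclease to cut out the DNA around a bound protein in nuclei. After 24 hours of hormone starvation, in charcoal-stripped serum, cells received T3 at 10 nM or the vehicle, NaOH. Each library is labelled 6 hours, while the treatment text also names 24 hours. Every combination of 4 antibodies (TRβ, BRG1, ARID1A and PBRM1) with T3 or vehicle had 2 libraries and 1 deposited list of peaks reproducible between them, with 500000 cells per reaction. With 1 list per group, no difference between lists has a replicate check, and intervals cover counting error across regions only. The lists give no read depth, which is unknown. The PBRM1 list held 38132 regions with T3 and 9115 with vehicle, and the TRβ list 7186 with T3 and 1405 with vehicle. BRG1 had 55931 regions with T3 and 64289 with vehicle, and ARID1A 41690 with T3 and 48976 with vehicle.

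TRβ is a nuclear receptor that binds DNA as a dimer, often with a retinoid X receptor, and exchanges corepressors for coactivators when T3 occupies its pocket. The SWI/SNF remodelers slide or evict nucleosomes with the energy of ATP. BRG1, encoded by SMARCA4, is the motor of forms of the complex that include BAF and PBAF. ARID1A belongs to BAF, whereas PBRM1, which reads acetylated histones, belongs to PBAF. BRG1 with PBRM1 and no ARID1A is thus a pattern that PBAF alone would give. No other subunit particular to BAF was profiled, so a lack of ARID1A does not show a lack of BAF.

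Of the 1367 constant-PBRM1 regions on chromosomes with annotated gene starts, 700 held a start (51.2%, 48.5 to 53.9), beside 32.5% of all TRβ T3 regions. The share was 44.3% in T3-only TRβ regions with PBRM1 in the T3 list only and 6.74% with PBRM1 in neither list. It was 51.6% in TRβ T3 regions that overlapped a TRβ vehicle region. Starts were taken from RefSeq (GRCh38.p14) for the 27195 of 38151 protein-coding and lncRNA genes that the table covers. The table also gives promoter windows of 300 bases, 250 before and 50 after the start, and 1024 windows of 868 genes had their start inside a member. The windows below are shown as examples without and with the receptor hexamer, and those with it are over-represented here. FOSB and CDKN2D lie in members that ranked among the strongest, and their windows hold GC boxes (GGGCGG on either strand, in capitals) but no receptor hexamer. PPP2R5C and CIC lie in strong members and hold 1 receptor hexamer each (AGGTCA, or TGACCT where it is on the opposite strand, in capitals), and UCHL3 and RAB11FIP2 hold 2 each, as did 4 of the 1024 windows. FOSB encodes an AP-1 subunit, CDKN2D a brake on cyclin-dependent kinases, PPP2R5C a regulatory subunit of a serine/threonine phosphatase, CIC a transcriptional repressor, UCHL3 a deubiquitinating enzyme and RAB11FIP2 a protein of endosomal recycling. The sequences are RefSeq's for GRCh38.p14, 5′ to 3′ on the strand of the gene.
FOSB, chr19:45467746-45468045, plus strand: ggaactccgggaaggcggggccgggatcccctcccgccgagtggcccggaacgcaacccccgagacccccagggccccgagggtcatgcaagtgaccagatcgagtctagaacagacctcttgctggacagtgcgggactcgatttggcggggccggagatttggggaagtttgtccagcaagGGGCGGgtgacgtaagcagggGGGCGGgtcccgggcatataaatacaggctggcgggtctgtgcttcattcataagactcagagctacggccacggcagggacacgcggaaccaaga
CDKN2D, chr19:10568930-10569229, minus strand: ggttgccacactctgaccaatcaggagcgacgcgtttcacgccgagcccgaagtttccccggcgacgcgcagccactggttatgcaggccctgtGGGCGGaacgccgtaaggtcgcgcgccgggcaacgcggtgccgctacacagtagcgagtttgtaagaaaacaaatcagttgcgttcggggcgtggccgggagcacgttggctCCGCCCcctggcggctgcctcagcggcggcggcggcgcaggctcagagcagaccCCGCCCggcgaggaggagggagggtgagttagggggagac
PPP2R5C, chr14:101760323-101760622, plus strand: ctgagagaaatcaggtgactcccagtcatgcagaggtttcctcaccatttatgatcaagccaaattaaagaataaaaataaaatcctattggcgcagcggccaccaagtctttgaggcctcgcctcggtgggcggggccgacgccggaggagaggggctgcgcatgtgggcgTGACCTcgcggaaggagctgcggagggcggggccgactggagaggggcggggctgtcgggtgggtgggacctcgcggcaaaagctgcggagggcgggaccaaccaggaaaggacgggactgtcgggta
CIC, chr19:42284219-42284518, plus strand: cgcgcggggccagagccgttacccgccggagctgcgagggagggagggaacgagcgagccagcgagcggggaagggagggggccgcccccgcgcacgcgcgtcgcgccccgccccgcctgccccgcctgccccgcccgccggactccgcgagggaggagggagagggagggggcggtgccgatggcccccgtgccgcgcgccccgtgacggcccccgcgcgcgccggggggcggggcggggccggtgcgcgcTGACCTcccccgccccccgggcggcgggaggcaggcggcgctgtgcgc
UCHL3, chr13:75549541-75549840, plus strand: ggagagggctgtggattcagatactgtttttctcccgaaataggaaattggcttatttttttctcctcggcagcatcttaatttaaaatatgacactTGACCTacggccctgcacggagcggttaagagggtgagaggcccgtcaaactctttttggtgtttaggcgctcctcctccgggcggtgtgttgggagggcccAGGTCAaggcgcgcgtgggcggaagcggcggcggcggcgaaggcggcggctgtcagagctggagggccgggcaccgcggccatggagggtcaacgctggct
RAB11FIP2, chr10:118046892-118047191, minus strand: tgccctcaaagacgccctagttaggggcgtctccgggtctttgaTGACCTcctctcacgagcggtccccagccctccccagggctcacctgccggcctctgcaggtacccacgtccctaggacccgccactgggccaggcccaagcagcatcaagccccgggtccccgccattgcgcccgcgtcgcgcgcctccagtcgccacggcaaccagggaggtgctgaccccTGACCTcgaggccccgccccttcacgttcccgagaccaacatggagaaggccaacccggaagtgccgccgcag

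The promoters within constant-PBRM1 regions were rich in G and C. Their median GC content was 68.7%, against 69.0% for promoters in T3-only TRβ regions with PBRM1 in the T3 list only, 61.5% for those with PBRM1 in neither list and 58.7% for all 34961 windows of the table. The GC box GGGCGG, a motif of SP and KLF factors, was present on either strand in 848 of the 1024 windows (82.8%, 80.4 to 85.1), beside 45.0% of all windows. The receptor hexamer AGGTCA was present on either strand in 76 windows (7.42%, 5.89 to 9.20), beside 13.8% of all windows. The direct repeat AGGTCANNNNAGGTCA, the classical thyroid hormone response element, matched 0 of the 1024 windows (upper limit 0.36%), beside 0.02% of all windows. The repeat is so rare among all windows that this 0 does not set members apart. Only exact matches were searched, and member sequence outside the windows was not. As a description of letters in these windows, the hexamer was therefore less frequent in promoters of members than among annotated promoters.

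The shares were also compared among windows of like GC content. With a GC content of at least 70%, AGGTCA was found in 3.72% of 457 windows in members and 6.18% of all 7103 windows. From 60 to 70% GC the shares were 9.40% in members and 11.8% in all windows, and below 60% they were 13.7% and 17.7%. The GC box showed the greatest gap below 60% GC, with 50.4% of 131 windows in members and 15.8% of all windows, a smaller one from 60 to 70%, with 80.7% and 66.9%, and nearly none at 70% or more, with 94.1% and 92.7%. Over windows of any GC content, promoters with PBRM1 in the T3 list only had near values to those of members, 84.9% for GGGCGG and 8.29% for AGGTCA. The motifs that follow were not compared at like GC content. The TATA box TATAAA was in 3.52% of windows in members, beside 11.5% of all windows, and the AP-1 motif TGANTCA in 2.25%, beside 7.68%. Other promoter motifs were as frequent or more so. The motif CCAAT was in 36.8% (34.6% of all windows), the ETS motif CCGGAA in 24.2% (17.3%), the palindromic NRF1 motif, searched as 10 bases, in 3.32% (1.24%) and the CREB motif TGACGTCA in 3.22% (1.85%).

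BRG1 was listed at nearly every constant-PBRM1 region with and without hormone. It was in the T3 list at 1365 regions (97.4%, 96.4 to 98.1) and in the vehicle list at 1380 (98.4%, 97.6 to 99.0), beside 68.4% and 70.6% of all TRβ T3 regions. Both BRG1 lists covered 1356 members (96.7%, 95.6 to 97.6), beside 66.8% of all TRβ T3 regions. The receptor was thus listed only with T3 at sites where the remodeler motor was, in all but 46 cases, listed in both conditions. Of those 46 regions, 24 had BRG1 in the vehicle list only, 9 in the T3 list only and 13 in neither, beside 3.88%, 1.66% and 27.7% of all TRβ T3 regions.

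ARID1A was also present at most members, though it varied more. It was in the T3 list at 1302 regions (92.9%, 91.4 to 94.2) and in the vehicle list at 1263 (90.1%, 88.4 to 91.6), beside 66.4% and 65.1% of all TRβ T3 regions. Both ARID1A lists covered 1211 members (86.4%, 84.5 to 88.1), beside 58.3%. ARID1A was in the T3 list only at 91 members (6.49%) and in the vehicle list only at 52 (3.71%), beside 8.13% and 6.8% of all TRβ T3 regions, and in neither list at 48 (3.42%), beside 26.7%. All 4 lists of BRG1 and ARID1A overlapped 1187 members (84.7%, 82.7 to 86.5), beside 55.4% of all TRβ T3 regions. The next most frequent combinations, with BRG1 in both lists, were ARID1A in the T3 list only (83 regions), in the vehicle list only (48) and in neither (38). This last combination, one that PBAF without BAF would give, made up 2.71% of members (1.93 to 3.70), a share near the 2.87% of all TRβ T3 regions. Those 206 regions include 88 with PBRM1 in neither list, where the combination lacks the PBAF subunit. In T3-only TRβ regions with PBRM1 in the T3 list only, the share was 2.73%.

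**Figure D1:**
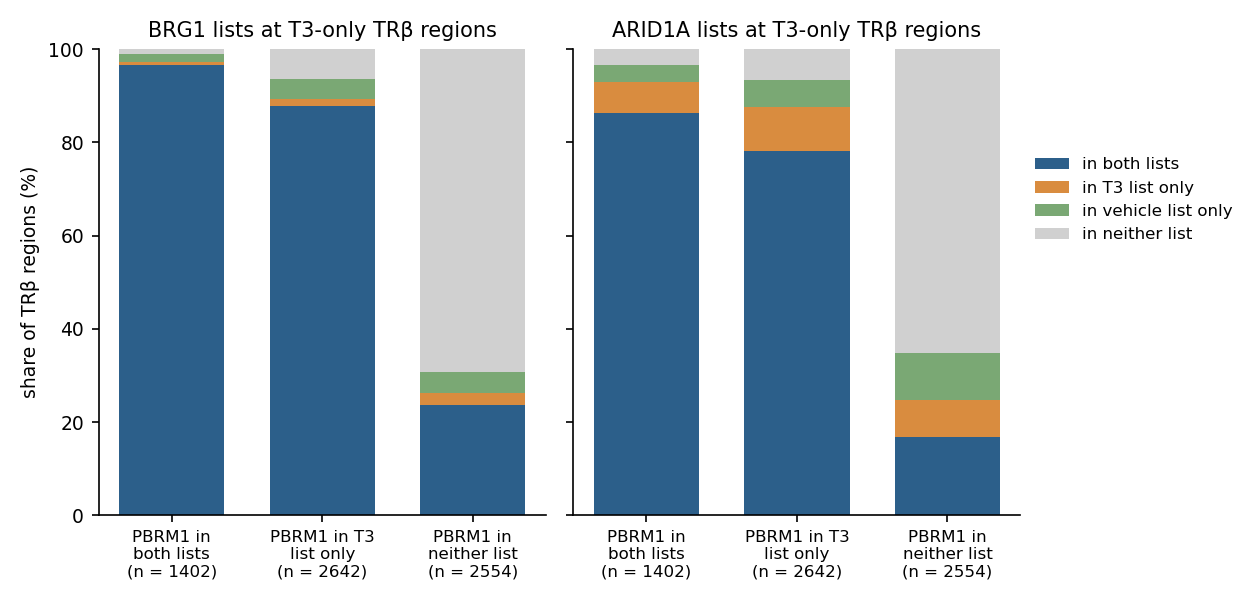
Share of T3-only TRβ regions (%) whose interval overlapped a BRG1 region (left) or an ARID1A region (right) of both lists, of the T3 list only, of the vehicle list only or of neither, for regions with PBRM1 in both lists (n = 1402), in the T3 list only (n = 2642) and in neither (n = 2554). BRG1 was in both lists at 96.7%, 87.8% and 23.7% of these sets, and ARID1A at 86.4%, 78.1% and 16.9%.

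These shares were higher at constant-PBRM1 regions than at the 2642 T3-only TRβ regions with PBRM1 in the T3 list only. BRG1 was in both lists at 96.7% of the constant set and 87.8% (86.5 to 89.0) of the T3-list-only set, ARID1A at 86.4% and 78.1% (76.5 to 79.6), and all 4 lists at 84.7% and 74.7% (73.0 to 76.4). The intervals did not overlap in these pairs with the lists as deposited. The 2554 T3-only TRβ regions with PBRM1 in neither list stood far apart, with BRG1 in both lists at 23.7%, ARID1A at 16.9% and all 4 at 14.3%. At the 498 TRβ T3 regions that overlapped a TRβ vehicle region, all 4 lists were present at 83.9% (80.4 to 87.1), which overlaps the interval of the constant-PBRM1 regions. A further 90 T3-only TRβ regions had PBRM1 in the vehicle list only. With a reciprocal overlap of 50% in place of 1 bp, 382 members were left, of which 52.6% had BRG1 in both lists and 42.4% all 4 lists, against 35.4% and 25.5% of the T3-list-only set. With lists cut to equal length per protein, the sets came close, with BRG1 in both lists at 99.3% of 277 members and 97.4% of 378 T3-list-only regions, ARID1A at 97.5% and 94.97%, and all 4 at 96.8% and 93.1%. At an IDR of at most 0.01 in all lists, the excess of members for BRG1 was 5.30 percentage points and for ARID1A 5.48, against 8.91 and 8.29 with all peaks. Neighbouring regions are not independent, and no test was made between sets.

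The shares also moved with width. The median width of constant-PBRM1 regions was 802 bp (quartiles 613 and 1076.5 bp, range 101 to 10909 bp), against 776 bp with PBRM1 in the T3 list only, 617 bp with PBRM1 in neither list and 724 bp over all TRβ T3 regions. The T3-only TRβ regions were divided at their quartiles of width (537, 714 and 937 bp). From narrowest to widest, all 4 lists were present at 73.7%, 78.3%, 86.5% and 92.3% of members. In the T3-list-only set the values were 64.2%, 69.2%, 75.8% and 83.6%. The share rose with width in both sets, and that of members was above the other at each step. The widest group of regions with PBRM1 in neither list reached 28.5%.

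**Figure D2:**
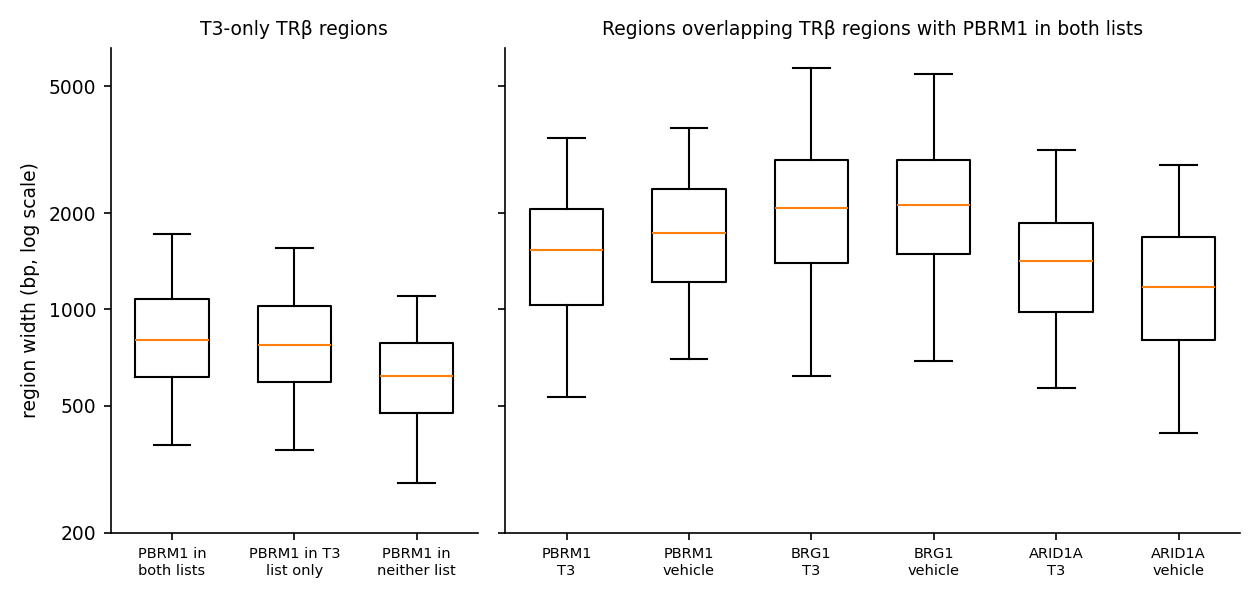
Width in bp, on a log scale, of T3-only TRβ regions in the 3 PBRM1 sets (left) and of the PBRM1, BRG1 and ARID1A regions that overlapped the constant-PBRM1 regions (right). Lines in the boxes are medians, boxes span the quartiles and whiskers the 5th to the 95th percentile. The TRβ medians were 802, 776 and 617 bp, and the BRG1 regions there were the widest, with medians of 2075 bp (T3) and 2119 bp (vehicle).

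The remodeler regions that met the members were among the wider of their lists. PBRM1 regions there had a median width of 1531.5 bp with T3 and 1736 bp with vehicle, beside 806 and 1249 bp over the whole lists. For BRG1 the medians were 2075 bp with T3 and 2119 bp with vehicle, beside 841 and 759 bp, and for ARID1A 1414 and 1176.5 bp, beside 770 and 669 bp. By the authors' signal value, the median member's region stood at percentile 84.0 of the PBRM1 T3 list, 71.1 of the PBRM1 vehicle list, 85.1 and 87.6 of the BRG1 T3 and vehicle lists, and 85.7 and 87.3 of the ARID1A T3 and vehicle lists. The percentiles describe each list within itself, and lists of unequal length cannot be compared by them. Regions that met the T3-list-only set were also wide, at 1267 bp for PBRM1 with T3. There, BRG1 medians were 1735 bp (T3) and 1822 bp (vehicle), and ARID1A medians 1275.5 and 1084 bp. Their median percentiles were 73.8 for PBRM1 T3, 80.8 and 84.3 for BRG1, and 81.9 and 83.8 for ARID1A. Wider intervals also meet the 1 bp rule more easily.

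The TRβ midpoint was mostly inside these wider remodeler regions, while many TRβ intervals ran past their edges. The midpoint of the TRβ region was inside a PBRM1 region at 93.4% of members with T3 and 91.7% with vehicle. Where BRG1 was listed, its regions held the midpoint at 96.9% with T3 and 98.8% with vehicle, and ARID1A regions at 94.0% and 92.2%. The whole TRβ interval was covered by PBRM1 at 57.4% of members with T3 and 60.6% with vehicle, by BRG1 at 76.3% and 80.5%, and by ARID1A at 56.1% and 47.1% of the members listed with each. In the T3-list-only set the midpoint was inside at 87.5% for PBRM1 with T3, at 95.7% with T3 and 95.97% with vehicle for BRG1, and at 90.3% and 89.2% for ARID1A. The median overlap with PBRM1 vehicle regions was 716 bp. At the limit of the rule, the smallest overlaps with a PBRM1 vehicle region were 5 bp (in TMEM53), 12 bp (in ZP3) and 17 bp (near TNFAIP8L1). Just outside it, T3-only regions in ADPRHL1 and at ING2 missed a PBRM1 vehicle region by 4 bp and one in EXOC3L4 by 5 bp. There were 12 members with an overlap under 50 bp, and 114 T3-list-only regions with a PBRM1 vehicle region within 500 bp.

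Most constant-PBRM1 regions lay at the ends of genes. In 943 members an annotated 5′ or 3′ end of a coding or lncRNA gene was within 1 kb of the midpoint (67.3%, 64.7 to 69.7), beside 46.7% of all TRβ T3 regions. The share was 62.8% (61.0 to 64.7) in the T3-list-only set, 15.6% with PBRM1 in neither list and 64.1% at regions shared with the TRβ vehicle list. Another 353 members (25.2%, beside 35.5%) lay inside a gene away from its ends and 106 (7.56%, beside 17.8%) outside genes. Of the 341 inside genes on chromosomes with starts in the table, 110 were within 1 kb of an internal start. Whether the others are exonic or intronic is not known here.

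Members clustered around annotated starts. The midpoint was within 1 kb of a start at 898 of 1367 members (65.7%, 63.1 to 68.2), beside 42.4% of all TRβ T3 regions, 57.6% of the T3-list-only set and 10.6% of the set with PBRM1 in neither list. Of the 898, 459 were downstream of the start (51.1%), and the median position was 8 bp downstream (quartiles -180 and 235 bp). Starts of both strands lay inside 155 members (11.3%), beside 7.3% of all TRβ T3 regions. They lay inside 10.1% of the T3-list-only set and 14.5% of regions shared with the TRβ vehicle list. The start table is incomplete, so a start missing from it can change which one is nearest.

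**Figure D3:**
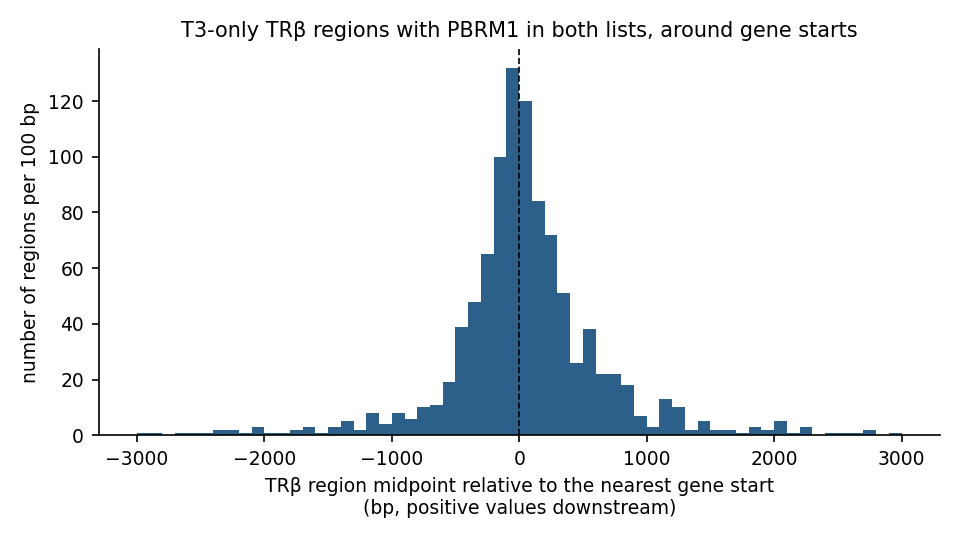
Number of constant-PBRM1 regions per 100 bp by the position of the midpoint relative to the nearest start in the RefSeq table, within 3000 bp, with positive values downstream. The 999 regions plotted form a single peak over the start, and 738 of them lie within 500 bp of it.

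Remodeler lists were fuller at gene ends than away from them. All 4 lists of BRG1 and ARID1A were present at 87.5% (85.2 to 89.5) of the 943 members at gene ends, 79.0% (74.4 to 83.2) of the 353 inside genes and 78.3% (69.2 to 85.7) of the 106 outside genes. BRG1 fell in the same order, with both lists at 98.6%, 94.1% and 88.7%, while ARID1A stood at 87.9%, 81.9% and 87.7%. The gap between members and the T3-list-only set was greater away from gene ends. There, BRG1 was in both lists at 92.8% of members (426 of 459) and 77.6% of the T3-list-only set (762 of 982), and ARID1A at 83.2% (79.5 to 86.5) and 70.6% (67.6 to 73.4). At gene ends the values were 98.6% and 93.9% for BRG1, and 87.9% and 82.5% for ARID1A. The difference between these differences was not tested.

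The same sites can be read from the side of PBRM1. Of the 9115 PBRM1 vehicle regions, 6847 overlapped a PBRM1 T3 region, and 1324 of these held a constant-PBRM1 TRβ region (19.3%, 18.4 to 20.3), while 5273 held no TRβ region of either list. ARID1A was in both lists at 89.5% (87.7 to 91.1) of the PBRM1 regions with a member and at 56.3% (55.0 to 57.7) of those with no TRβ region. For BRG1 the shares were 97.4% (96.3 to 98.2) and 82.1% (81.1 to 83.2), and for a gene end within 1 kb 67.5% (64.9 to 70.04) and 47.0% (45.7 to 48.4). A further 138 held no member but a TRβ T3 region that overlapped a TRβ vehicle region. There, ARID1A was in both lists at 94.9% (89.8 to 97.9) and BRG1 at 93.5% (88.0 to 97.0), with a gene end at 65.2%. The higher shares were therefore not particular to PBRM1 regions with a member. PBRM1 vehicle regions with a member were wider, with a median of 1744 bp against 1358 bp without TRβ. Within bands of that width the order stayed the same. ARID1A was in both lists at 80.7%, 88.2% and 94.8% of the regions with a member and at 41.1%, 55.8% and 77.5% of those without TRβ, for widths under 1000 bp, from 1000 to 2000 bp and from 2000 bp.

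At these PBRM1 regions the intervals themselves were about as wide with T3 as with vehicle. The median ratio of T3 to vehicle width was 0.979 for PBRM1, 1.001 for BRG1 and 1.09 for ARID1A at regions with a member, and 0.937, 1.02 and 1.11 at regions with no TRβ region. The quartiles of the PBRM1 ratio at regions with a member were 0.795 and 1.24, and the difference between the medians was not tested. A ratio of widths is not a ratio of bound protein. In all, members fell in 1332 PBRM1 vehicle regions, which includes 8 that did not themselves meet a PBRM1 T3 region. Of these, 1240 overlapped 1 member, 89 overlapped 2 and 3 overlapped 3, at PIGV (chromosome 1, 26786567 to 26789267), SRGAP2B (chromosome 1, 145091442 to 145097340) and PTCH1 (chromosome 9, 95505977 to 95510216), which encodes the Hedgehog receptor.

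Members were spread over all 23 chromosomes used. Chromosome 1 held 152, chromosome 17 held 101 and chromosome 7 held 91. Per 100 protein-coding genes, chromosome 20 had the most (15.1, from 81 members), followed by chromosome 21 (11.3, from 27), and chromosome X the fewest (1.89, from 16). As a share of the T3-only TRβ regions of the same chromosome, members ran between 14.01% on chromosome 19 and 27.8% on chromosome 18. On chromosomes 20, 21 and X that share was 23.8%, 20.5% and 20.5%, beside 20.96% over all chromosomes used. The ranking per gene was therefore not particular to members among T3-only TRβ regions. Although that share was lowest on chromosome 19, its PBRM1 regions kept with T3 carried the most members, 33.3 per 100, against 14.1 on chromosome 22. The median gap between neighbouring members was 187.6 kb, and 256 members (18.3%) had another within 10 kb. A TRβ vehicle region lay within 1 kb of 33 members (2.35%) and within 10 kb of 86 (6.13%, 4.94 to 7.52), while 8.02% (7.02 to 9.13) of the T3-list-only set had one within 10 kb.

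**Figure D4:**
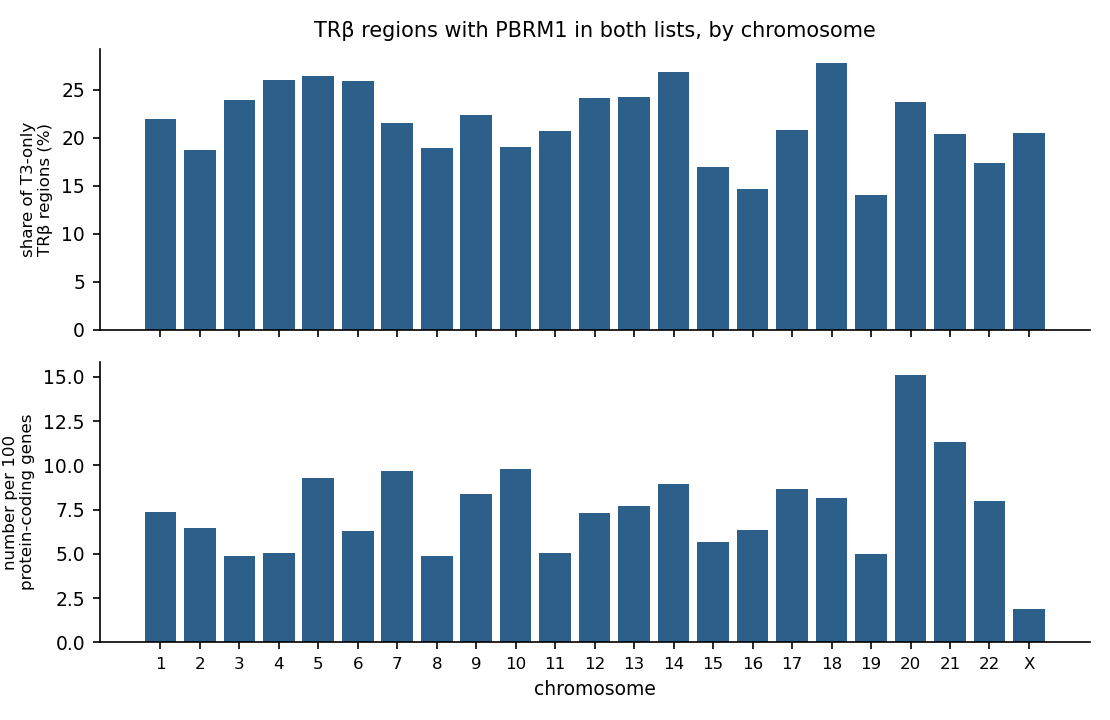
Constant-PBRM1 regions by chromosome, as a share of the T3-only TRβ regions of that chromosome (%, top) and as a number per 100 protein-coding genes (bottom). The share was lowest on chromosome 19 (14.01%) and highest on chromosome 18 (27.8%), and the number per gene was highest on chromosome 20 (15.1) and lowest on chromosome X (1.89). On chromosomes 20 and X the share was 23.8% and 20.5%, beside 20.96% over all chromosomes used.

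Individual peaks of TRβ with T3 were modest and uneven between libraries. The authors' peak value had a median of 5.80 in the first library and 5.17 in the second, and the weaker of both had a median of 4.40 (range 2.63 to 23.3). Over all TRβ T3 regions these medians were lower, at 5.26, 4.97 and 4.18. The values differed by more than 2-fold at 225 members (16.0%, beside 12.8% of all TRβ T3 regions). Across the 1402 members the libraries' values had a Spearman rho of 0.036, a description of peaks that had all passed the same reproducibility step. It was -0.034 over all TRβ T3 regions, so the lack of a relation was not particular to members. An irreproducible discovery rate (IDR) of at most 0.01 was reached by 826 members (58.9%), beside 47.5%. Signal value and width rose together across members, with a rho of 0.64, beside 0.62 over all TRβ T3 regions.

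**Figure D5:**
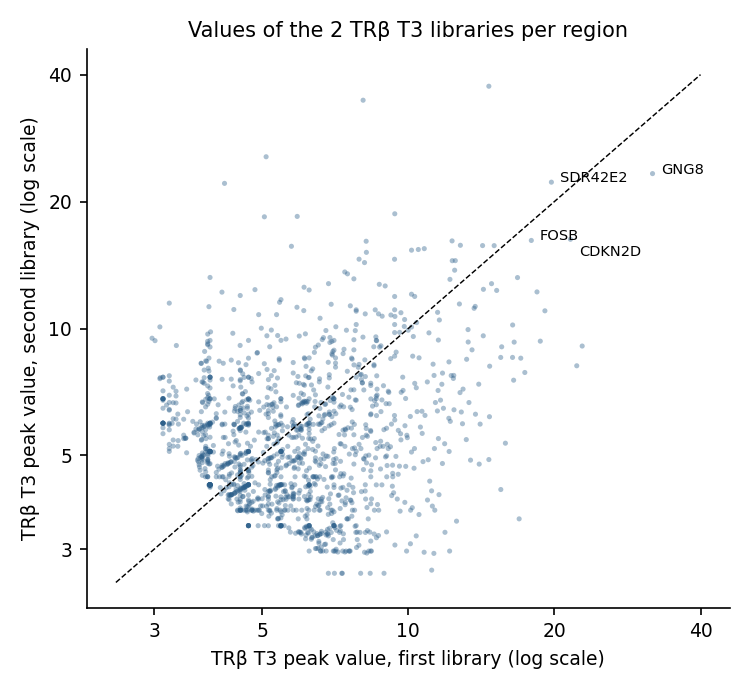
Peak values of the 2 TRβ T3 libraries at the 1402 constant-PBRM1 regions, on log axes. Each point is a region and the dashed line marks equal values. GNG8, SDR42E2, CDKN2D and FOSB were high in both libraries, whereas most regions lay between 3 and 10 in both, with no overall relation (rho 0.036).

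Ranked by the weaker library, the strongest member lay at GNG8, the gene of a G-protein gamma chain. It spanned 5712 bp (chromosome 19, 46634031 to 46639742, hg38) over a start of the gene, with values of 31.9 and 23.3 in the 2 libraries. The member inside SDR42E2, a short-chain dehydrogenase gene (chromosome 16, 22189889 to 22192167), had 19.7 and 22.2. That over the start of CDKN2D (chromosome 19, 10565642 to 10569455) had 21.6 and 16.3, and it also held the start of KRI1, a ribosome assembly gene. The FOSB member (chromosome 19, 45467700 to 45470520) had 17.9 and 16.2. In contrast to its high TRβ values, the PBRM1 regions at FOSB were narrow, 472 bp with T3 and 995 bp with vehicle, at percentiles 15.3 and 7.56 of their lists. All of these members had BRG1 and ARID1A in both lists.

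The other strong members named here had values from 12.5 to 15.8 in both libraries. They lay at PAQR4 (chromosome 16, 2966966 to 2969421; 15.03 and 15.7) and at the start of MIR22HG, the host gene of a microRNA, beside WDR81 (chromosome 17, 1713592 to 1716292; 14.2 and 15.7). One spanned the start of TSEN34, a subunit of the tRNA splicing endonuclease (chromosome 19, 54189447 to 54191724; 12.8 and 15.8). The PPP2R5C member (chromosome 14, 101760175 to 101762239) had 14.8 and 12.8. At TFEB, the transcription factor of lysosome formation (chromosome 6, 41733685 to 41735730), the values were 12.5 and 13.8. These members too had BRG1 and ARID1A in both lists, so the combination of all 4 lists held for every strong member named here.

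The widest member was of another kind. It spanned 10909 bp on chromosome 21 (8436200 to 8447108) over annotated ribosomal RNA genes (RNA45SN1 and the RNA18SN1 and RNA28SN1 genes within it), and had 14.7 and 37.5 in the libraries. A pair of further members lay over the RNA45SN2 unit (8204742 to 8209189, with 5.91 and 18.4, and 8213653 to 8219787, with 6.58 and 10.6). The second of the pair, of 6135 bp, was in no BRG1 list although ARID1A was in both. Ribosomal DNA is repeated on several chromosomes, so reads there cannot be assigned to one copy with certainty. At the other end, 13 members were narrower than 200 bp (0.927%, beside 1.45%). Among them, those in CREBBP, a histone acetyltransferase gene (109 bp; 8.07 and 34.8), and YJU2, a splicing factor gene (113 bp; 4.18 and 22.1), were high in 1 library.

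At CXXC5, PDGFRB, AHNAK and MIDN lay the 4 members chosen for the highest PBRM1 vehicle signal. By TRβ signal value they stood at percentiles 66.0, 67.2, 72.3 and 99.2 of the TRβ T3 list, in that order. Whether PBRM1 and TRβ signal go together across members was not tested. CXXC5, a CXXC zinc-finger gene, held the highest PBRM1 vehicle signal value of any member, 84.6, where a TRβ region of 580 bp (chromosome 5, 139658596 to 139659175) had 5.33 and 5.93. At PDGFRB, a growth factor receptor gene, the PBRM1 signal value was 65.6 and the TRβ values were 6.96 and 4.43 (chromosome 5, 150137698 to 150138226). AHNAK, which encodes a large scaffold protein, had 63.0 for PBRM1 and 8.69 and 3.23 for TRβ (chromosome 11, 62545086 to 62546091). MIDN, whose product guides proteins to the proteasome, differed, with 62.4 for PBRM1 and 12.3 and 16.1 for TRβ (chromosome 19, 1260068 to 1262065). In the first 3, a TRβ region of 529 to 1006 bp lay in PBRM1 vehicle regions of 6000 to 10589 bp.

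Only 5 members met no BRG1 and no ARID1A region in any list (0.357%, beside 22.1% of all TRβ T3 regions). Among them were SLC5A10, a sugar transporter gene (chromosome 17, 18961736 to 18962410; 4.69 and 6.27), UNKL (chromosome 16, 1366532 to 1367514; 6.11 and 3.996) and DUS1L, a tRNA dihydrouridine synthase gene (chromosome 17, 82064137 to 82064827; 5.95 and 3.94). Each lay inside its gene, and no value in either library exceeded 6.27. The following examples of unequal lists were chosen after their values were seen. BRG1 was in the T3 list only at TAMALIN (9.29 and 4.54), COL18A1 (4.61 and 4.14) and the start of SPSB3 (3.86 and 7.31), and in the vehicle list only at ZIC2 (6.06 and 6.70), MAST3 (6.94 and 5.92) and PTGER4 (6.76 and 4.71). ARID1A was in the T3 list only at FBXO2 (8.16 and 7.69) and MAIP1 (7.78 and 6.77), and in the vehicle list only at RPS15 (6.23 and 7.65) and NUP42 (6.06 and 5.49). BRG1 without ARID1A in any list was found at the starts of MPP2 (6.03 and 6.65), UGGT1 (6.04 and 5.86) and SMC4, a condensin gene (6.14 and 5.32).

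Of 19974 protein-coding genes, 2279 had an annotated end within 25 kb of a member (11.4%), and of the 15812 with a start in the table, 710 had it inside one (4.49%). Nearness to a region says nothing of whether the gene responded to T3. Of 328 genes in 19 lists, 75 were near a member. The lists are given by their counts beside the 11.4% of all protein-coding genes, and the genes within them often neighbour one another.

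Genes of thyroid hormone action are given first. None of the 5 thyroid hormone and retinoid X receptor genes, none of the 12 nuclear receptor coregulator genes and 1 of 9 deiodinase and transporter genes was near one. That gene was SLC3A2, the heavy chain of amino acid transporters, 22837 bp from a region at STX5 (chromosome 11, 62831153 to 62833271; 16.5 and 9.29). DIO1, DIO2, THRA and THRB had no member within 25 kb, although THRA had 2 regions of the T3-list-only set. Of 16 T3-responsive genes, 3 were near a member. KLF9, a transcription factor gene induced early by T3 in many cells, had 1 at 5216 bp (chromosome 9, 70419874 to 70420955; 8.41 and 3.94), which was its single TRβ T3 region within 25 kb. At ATP2A2, the calcium pump gene of the endoplasmic reticulum, a member lay over the start (chromosome 12, 110280631 to 110281692; 4.49 and 5.80). HCN2, a pacemaker channel gene, was 16702 bp from a member at BSG.

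Of 15 genes of thyroid identity and hormone synthesis, 1 was near a member. It was PAX8, the lineage transcription factor, with a region 28 bp from an annotated end of the gene (chromosome 2, 113278200 to 113278892; 3.73 and 4.95) that had BRG1 and ARID1A in both lists. Within 25 kb, PAX8 also had 2 TRβ regions of the T3-list-only set and 1 with PBRM1 in the vehicle list only. TG, NKX2-1 and FOXE1 had no TRβ T3 region of any kind within 25 kb. Of the 28 BAF and PBAF subunit genes, 6 were near a member: ARID1A, PBRM1, SMARCC2, DPF2, BCL7C and SS18L1. ARID1A had 3, the nearest at 4992 bp, all overlapping the PBRM1 vehicle region at PIGV. PBRM1 had 1 at 9980 bp, over the start of NT5DC2 (chromosome 3, 52533870 to 52535386; 6.25 and 12.3), while SMARCA4 had none and 1 region of the T3-list-only set.

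The 4 lists with the highest shares near a member also had many genes near any TRβ T3 region. In a list of 12 genes of insulin and growth signalling, mostly inhibitors, 6 were near a member, among them SOCS3, TSC1, DDIT4 and SESN2, and also IRS2, a substrate of the insulin receptor that passes its signal on. Some TRβ T3 region of any kind was near 9 of the 12. SOCS3, a brake on cytokine signalling, had a pair of them, one over the start (chromosome 17, 78359462 to 78360346; 8.17 and 3.94) and one downstream (78358195 to 78358660; 7.60 and 3.92), with ARID1A in both lists at the first and in the T3 list only at the second. Of 27 WNT and YAP pathway genes, 10 were near a member and 14 near any TRβ T3 region, with TCF7L1, LRP6, RNF43 and TEAD4 among the 10. TCF7L1, a WNT pathway repressor, had one over its start (chromosome 2, 85132637 to 85133580; 6.17 and 6.72). The cell cycle list had 7 of 22, namely CCND3, CDK2, CDK4, CDKN2D, E2F1, E2F3 and E2F4, and 18 near any TRβ T3 region. At E2F1, a transcription factor of S-phase entry, a member of 562 bp lay over the start (chromosome 20, 33686121 to 33686682; 6.96 and 9.32). Receptor kinase, RAS-MAPK and PI3K genes had 8 of 28 near a member and 19 near any TRβ T3 region. Among the 8 was IGF1R, the receptor of insulin-like growth factor (chromosome 15, 98647103 to 98649150; 6.09 and 11.03). The MYC network had 2 of 12, MXD3 and MXI1, both antagonists of MYC with a member over the start.

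Among transcription factor families, AP-1 and related bZIP factors had 4 of 17 (FOSB, FOSL1, JUNB and ATF4), KLF and SP factors 4 of 18 (KLF9, KLF11, KLF16 and SP4) and RUNX factors 1 of 4 (RUNX1). RUNX2 had none, and its TRβ T3 region had PBRM1 in neither list. KLF16 held a member over a start (chromosome 19, 1862517 to 1864624; 10.2 and 15.3), and ATF4, the factor of the integrated stress response, another (chromosome 22, 39519598 to 39521039; 6.96 and 8.71). TGF-beta, mesenchymal and matrix genes had 6 of 22, with members over the starts of SMAD2, TGFB2 and TGFBR1, and epithelial junction and keratin genes 5 of 20, with one over the start of OCLN, which encodes occludin.

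Metabolic and housekeeping lists had shares between 17.4% and 20%. Glycolysis and hypoxia genes had 4 of 22, among them PKM (chromosome 15, 72230160 to 72231752; 7.67 and 8.46) and LDHA (chromosome 11, 18394460 to 18395772; 7.27 and 6.58), both with a member over the start. Lipid and cholesterol genes had 4 of 20, with one over the start of ACLY, the enzyme that makes cytosolic acetyl-CoA (chromosome 17, 41918224 to 41920155; 11.3 and 5.19). Cytosolic ribosomal protein genes had 4 of 23, with RPS15 holding a member over its start. The share was above the 11.4% of all protein-coding genes in 15 of the 19 lists, and 37.7% of all protein-coding genes had some TRβ T3 region within 25 kb. Such a region was near 17 of 22 glycolysis, 13 of 20 lipid and 14 of 23 ribosomal protein genes. It was near 20 of 28 BAF and PBAF, 13 of 17 AP-1 and 11 of 18 KLF and SP genes, but 4 of 12 coregulator genes. The shares above 11.4% therefore do not set members apart from other TRβ T3 regions, and no test was made.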

How the data were processed

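Peak lists from 16 CUT&RUN libraries (8 groups of 2) were used, and the IgG library was not used. Per the submitters' processing notes, the tools were Bowtie2, MACS2, Trim Galore and CASAVA 1.7, on hg38, with parameters not given in the sources used here. Per the file layout, each deposited list holds peaks passing an IDR of 0.05 between 2 libraries, as the union of their intervals. The deposited signal value sums the peak values of both libraries and served to rank peaks inside a list. The deposited −log10 column gives the IDR and, with the other deposited coordinate columns, was used as it stands. The layout does not number its libraries, and 16 columns of summits were unused. The labels do not say whether replicates were separate cultures.

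Overlap needed at least 1 bp. Shares carry exact (Clopper-Pearson) 95% intervals, and no test was made. Gene ends (1 kb for location, 25 kb for nearby genes) and promoter windows came from RefSeq tables of GRCh38.p14. Motifs were searched on both strands. Members and gene lists were chosen with earlier results of these data known. Named members were the 12 strongest by the weaker library, the 4 widest, the 4 with the highest PBRM1 vehicle signal, up to 5 without BRG1 or ARID1A, up to 3 per gene list, those at the limits of the rule, and 14 genes named in any case. A member takes the name of the protein-coding gene nearest to it (up to 100 kb), and some names that the rule gives are not reported here. The start table has none on chromosome 8, whose 35 members enter no start-based share. The alternatives are given in the closing section. Overlap counting was tested on simulated lists of 7186 regions, with 0 wrong calls. Python 3.11.15, numpy 2.4.6, pandas 2.3.3, scipy 1.17.1 and matplotlib 3.10.9 were used.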

Additional observations from a re-analysis of the deposited data

How the results depend on the processing

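No paired analysis was possible because the results come from lists with no test across libraries. Of the recomputed values, 31 stayed near the main value and 26 moved. The cause was not tested. At an IDR of at most 0.01 there were 355 members, 338 of them shared with the 1402, with ARID1A in both lists at 83.7%, all 4 lists at 82.0%, a median width of 969 bp and 70.4% at gene ends. Reciprocal overlap of 50% left 382 members, with BRG1 in both lists at 52.6%, ARID1A at 70.2%, all 4 at 42.4%, a width of 1112.5 bp and 74.9% at gene ends. Lists of equal length per protein left 277, with 99.3%, 97.5%, 96.8%, 1251 bp and 71.8% in the same order. A tolerance of 500 bp gave 89.7% for ARID1A and 88.0% for all 4, and the 200 bp around the TRβ midpoint 82.9% and 81.1%. Intervals of 1 library gave widths of 679 to 708 bp. A gene-end window of 3 kb gave 78.2%, and gene windows of 5 and 100 kb gave 1368 and 4638 genes in place of 2279.

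Without members near regions found in all 8 lists, or without TRβ T3 regions over 2-fold apart between libraries (an alternative added after seeing the data), all 6 results stayed near their main values. The excess of members over the T3-list-only set kept its sign under all 9 settings of peaks and overlap. The setting on regions found in all 8 lists removed members only and left the T3-list-only set whole, so it compares unlike sets. With the main lists the excess was 8.91 percentage points for BRG1 in both lists (1.92 with equal lengths, 17.2 with reciprocal overlap). For ARID1A it was 8.29 (2.499 and 21.2).

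Limits are the single list per group, the unknown depth and the incomplete table of starts. Peak lists cannot show whether a protein is absent at a site outside a list, or whether its level changed.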

Other observations

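The TRβ T3 list held 75 regions on contigs other than the named chromosomes, of which 1 met the rule. Hairpins of 16 annotated microRNAs lay inside constant-PBRM1 regions, among them MIR92B in a member at MUC1, MIR762 at BCL7C and MIR611 at TMEM258. Hairpins in other TRβ T3 regions were not counted, so the number does not set members apart. The weaker TRβ value was 9.77 at MUC1, 5.04 at BCL7C and 6.22 at TMEM258.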
